A study of Rattus norvegicus with 74 samples.

Results

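The genes described here code for the enzymes that build cholesterol and fatty acids and for the proteins that switch those enzymes on and off. The list held 32 gene symbols, taken from general knowledge of the pathways and matched to the symbol column of 3 count tables. The match found 31 of the 32 among 30560 genes in each table, and the symbol Fdps, for farnesyl diphosphate synthase, was not matched and is not analysed here. Of the 31, 6 belong to the mevalonate arm (Acat2, Hmgcs1, Mvk, Pmvk, Mvd, Idi1) and 11 to the steps from squalene synthesis to cholesterol (Fdft1, Sqle, Lss, Cyp51, Tm7sf2, Msmo1, Nsdhl, Hsd17b7, Ebp, Sc5d, Dhcr7). A further 6 control the pathway or carry sterol (Srebf1, Srebf2, Scap, Insig1, Insig2, Stard4), and 8 make, elongate or desaturate fatty acids (Acly, Acaca, Acacb, Fasn, Me1, Scd, Elovl5, Elovl6).

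Total RNA, depleted of ribosomal RNA, was sequenced from 74 libraries of wild-type male Wistar Kyoto rats killed at 9 weeks of age. Whole inner red gastrocnemius muscle (SM) and mitochondria isolated from the same muscle (MT) came from 30 rats, 15 sedentary (Sed) and 15 exercise-trained (ExT), and left ventricle (LV) came from 7 rats of each arm, all of which also gave SM and MT. ExT rats were aged 5 weeks when treadmill running began and ran 5 times weekly during 4 weeks, with sessions of 60 minutes at a final 20 m/min, and were killed 24 hours after the last session. Sed rats stood on a still treadmill for as long. All rats in every group drank water with 8% deuterium oxide and ate standard chow, and mitochondria were captured with antibodies and treated with RNase A and proteinase K before RNA extraction.

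Cholesterol synthesis starts from acetyl-CoA, passes through mevalonate and squalene, and ends with a chain of demethylation, isomerization and reduction steps. Its genes are switched on together by the sterol regulatory element-binding proteins, chiefly the product of Srebf2, while the products of Srebf1 act more on fatty acid synthesis. When sterol is plentiful, INSIG proteins hold the SREBP escort SCAP in the endoplasmic reticulum, and INSIG1 is itself a target of the pathway.

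Values are CPM, counts scaled to library size and adjusted by the trimmed mean of M-values (TMM). The factors were set within each comparison, so the level printed for a gene in the same libraries can differ between comparisons. SM libraries held between 19477976 and 39401323 reads, LV libraries between 54645657 and 75758777, and MT libraries between 530397 and 9988027. Genes of the mitochondrial genome took 22.1% to 35.9% of the reads in SM, 39.9% to 50.7% in LV and 12.9% to 95.4% in MT. The tissues matched their labels: 7 skeletal muscle markers summed to between 43121 and 68146 CPM in SM and between 1786 and 2548 CPM in LV, and 6 heart muscle markers to between 3.04 and 20.8 CPM in SM and between 23495 and 33642 CPM in LV. In MT the 7 skeletal muscle markers summed to between 188 and 921 CPM.

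Heart and red muscle of the same sedentary rats differed in the control genes of the pathway. The genes for the SREBP transcription factors were lower in heart, Srebf1 by 2.23 and Srebf2 by 1.26 on the log2 scale, while Insig1 and Stard4 were higher by 1.51 and 1.45. Of 31 members tested, 23 differed at an adjusted p under 0.05 in edgeR's quasi-likelihood test, 11 higher and 12 lower in LV, which is 74.2% of them beside 78.7% of all 14367 genes tested (40% higher and 38.6% lower). In trained rats 25 of 31 differed, 13 higher and 12 lower, or 80.6% beside 79.3% of 14338 genes (39.7% higher and 39.5% lower). The same 11 members were higher and the same 12 lower in both arms, and none was called in opposite directions. The arms share no rat, but LV and SM differ in kit and depth in both. The share of all genes called the same way in both arms is not given here. With the rat as a block, Acat2 and Sqle were also called higher in Sed, 25 of 31 in all. The share of members that differed was thus close to that of all genes, and what follows is which members differed and which way. LV and SM libraries were made with different kits, from 100 ng and 50 ng of RNA, and at different depths, so tissue, kit and depth cannot be told apart. In whole tissue, fewer cells of a type and less RNA per cell cannot be told apart either.

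**Figure D1:**
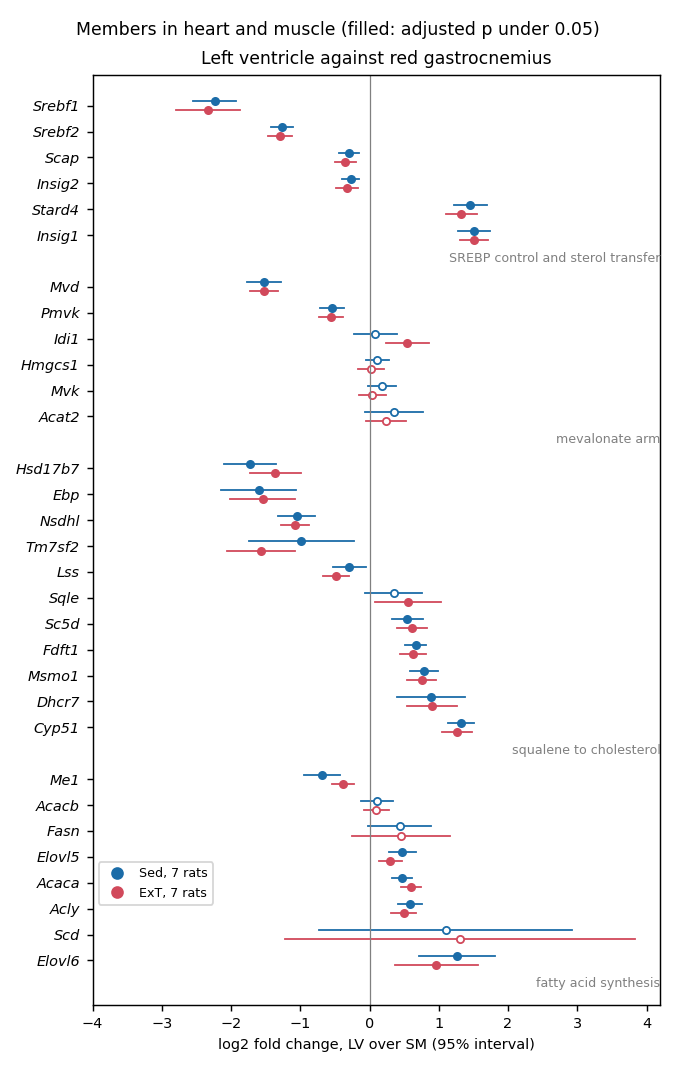
Log2 fold change of each of the 31 members in left ventricle over red gastrocnemius (x axis), with 95% intervals, in 7 Sed rats (blue) and 7 ExT rats (red); rows are genes grouped by role, and filled points have an adjusted p under 0.05. Srebf1 lies furthest left, at -2.23 in Sed and -2.33 in ExT, and Insig1 at 1.51 in both arms.

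Srebf1 (ENSRNOG00000003463), whose products drive lipid synthesis genes, was between 13.4 and 20.2 CPM in the 7 LV_Sed hearts (median 17.5) and between 54.0 and 113 CPM in the muscles of the same rats (median 77.8). In ExT it was between 12.0 and 21.3 CPM in LV (median 16.8) and between 51.1 and 129 CPM in SM (median 78.5). Every heart was below every muscle in both arms. Such separation, here and for the genes below, was not counted over all genes tested, of which 78.7% differed in Sed. The edgeR log2 fold change was -2.23 (SE 0.146, adjusted p = 4.04e-10) in Sed and -2.33 (SE 0.214, adjusted p = 1.13e-07) in ExT. Srebf2 (ENSRNOG00000007400), the factor of the cholesterol arm, was between 15.3 and 20.9 CPM in LV_Sed (median 18.7) and between 40.7 and 52.4 CPM in SM_Sed (median 45.4), again without overlap. Its edgeR log2 fold change was -1.26 (SE 0.0749, adjusted p = 7.91e-12) in Sed and -1.29 (SE 0.0821, adjusted p = 2.05e-11) in ExT. Scap, the escort protein, differed far less, with medians of 30.1 CPM in LV_Sed and 38.1 CPM in SM_Sed, ranges that overlapped and an LV over SM change of -0.30 in log2 (SE 0.07, adjusted p = 7.26e-04 by edgeR). It was -0.35 in ExT.

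Insig1 (ENSRNOG00000006859) went the other way from the factor genes. It was between 27.6 and 39.1 CPM in LV_Sed (median 31.5) and between 8.60 and 14.7 CPM in SM_Sed (median 10.5). No heart reached down to the highest muscle, and the edgeR log2 fold change was 1.51 (SE 0.109, adjusted p = 2.08e-10) in Sed and 1.51 (SE 0.0938, adjusted p = 1.47e-11) in ExT. Its homologue Insig2, which is not a classical target of SREBP, was slightly lower in heart, between 10.4 and 11.4 CPM in LV_Sed and between 12.4 and 14.3 CPM in SM_Sed, with log2 fold changes of -0.27 in Sed and -0.33 in ExT. Stard4, which carries cholesterol between membranes, was between 9.91 and 13 CPM in LV_Sed (median 11.9) and between 3 and 5.63 CPM in SM_Sed (median 4.55). The groups did not overlap, with an edgeR log2 fold change of 1.45 (SE 0.113, adjusted p = 4.76e-10) in Sed and 1.32 in ExT.

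**Figure D2:**
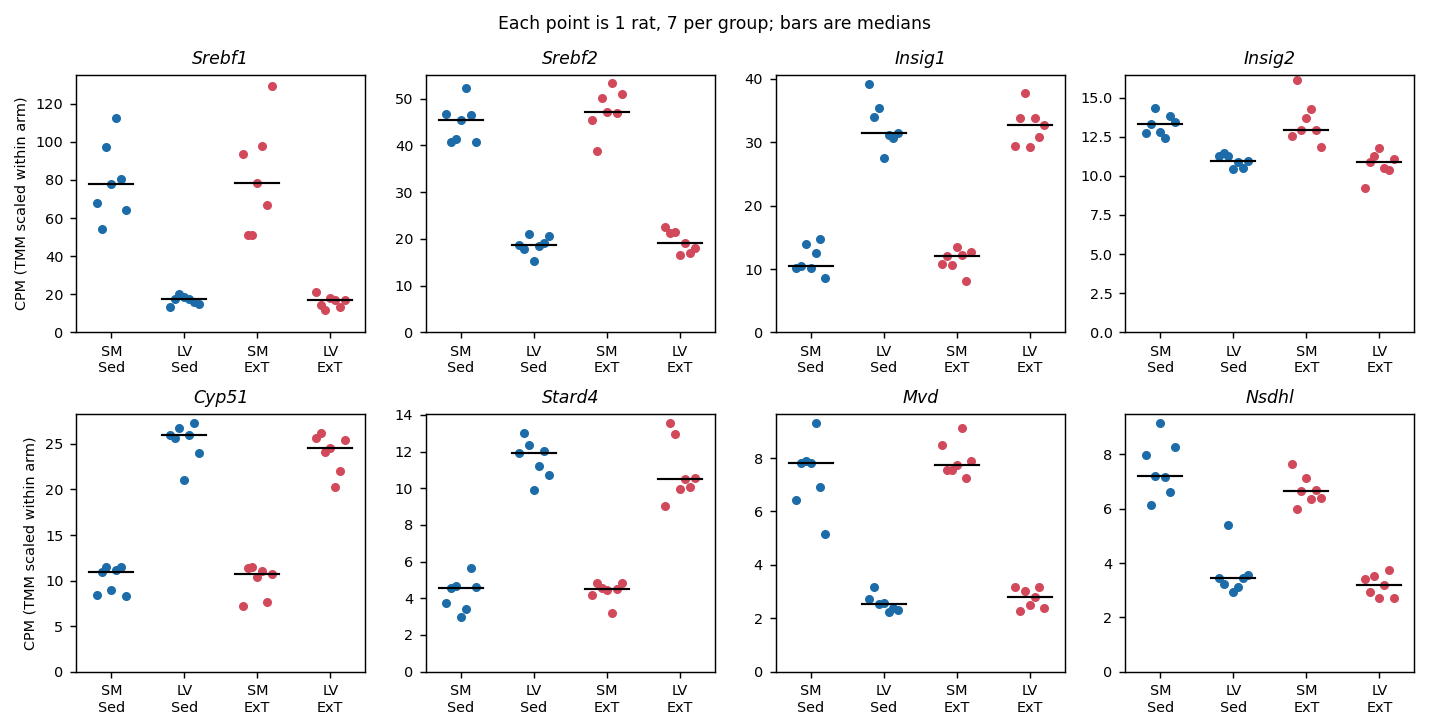
TMM-scaled CPM (y axes, from 0) of 8 members in each rat, for SM and LV of 7 Sed rats (blue) and 7 ExT rats (red); black bars are medians. Srebf1, Srebf2, Insig2, Mvd and Nsdhl sit lower in heart and Insig1, Cyp51 and Stard4 higher, and the points of the 2 tissues do not overlap within an arm. How many of all genes tested separate the tissues in this way was not counted.

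In the mevalonate arm the clearest difference was in Mvd (ENSRNOG00000013376), mevalonate diphosphate decarboxylase. It was between 2.22 and 3.18 CPM in LV_Sed (median 2.53) and between 5.15 and 9.30 CPM in SM_Sed (median 7.83), with an edgeR log2 fold change of -1.52 (SE 0.118, adjusted p = 4.91e-10), and -1.53 in ExT. Pmvk, the kinase just before it, was lower in LV as well, by -0.54 in Sed and -0.55 in ExT on the log2 scale. The enzymes at the entry, Acat2 and Hmgcs1, and mevalonate kinase Mvk were not called in either arm, with log2 fold changes between 0.01 and 0.35. Idi1, the isomerase at the end of the arm, was at 0.55 in ExT, which was called, and at 0.08 in Sed, which was not. The direct test of whether its training difference was the same in LV and SM gave a log2 difference of 0.48 (edgeR adjusted p = 1.0).

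The steps after squalene split almost evenly. In LV_Sed 5 of 11 members were higher, 5 lower and 1 not called, and in ExT 6 were higher and 5 lower. Cyp51 (ENSRNOG00000007234), the lanosterol demethylase, was between 21.0 and 27.3 CPM in LV_Sed (median 26) and between 8.28 and 11.5 CPM in SM_Sed (median 10.9). Every heart was above every muscle, with an edgeR log2 fold change of 1.32 (SE 0.0882, adjusted p = 4.71e-11) in Sed and 1.27 in ExT. Fdft1, squalene synthase, was higher by 0.66, Msmo1 by 0.79, Sc5d by 0.55 and Dhcr7, the last reductase before cholesterol, by 0.88 in Sed. Without the heart of Sed rat 20 Dhcr7 was higher by 0.64 and 23 members were called, and without that of rat 29 25 were called, 14 higher and 11 lower. On the other side, Hsd17b7 was between 0.476 and 0.799 CPM in LV_Sed (median 0.636) and between 1.52 and 2.68 CPM in SM_Sed (median 1.93). Its edgeR log2 fold change was -1.72 (SE 0.178, adjusted p = 3.23e-08), and that of Ebp, the sterol isomerase, was -1.60 (SE 0.258, adjusted p = 1.31e-05). Nsdhl was between 2.95 and 5.42 CPM in LV_Sed and between 6.13 and 9.17 CPM in SM_Sed, a log2 fold change of -1.05, and Tm7sf2 and Lss were lower by -0.99 and -0.29. The call of Lss in Sed was lost with no filter on low counts (-0.26, edgeR adjusted p = 0.0541) and without the heart of rat 29 (-0.26), while in ExT it was at -0.48 and called. In ExT Tm7sf2, a sterol reductase, was between 0.266 and 0.589 CPM in LV and between 0.786 and 1.93 CPM in SM, without overlap, at -1.57 (SE 0.232, edgeR adjusted p = 4.36e-06). Msmo1, Nsdhl and Hsd17b7 act in turn in taking methyl groups off the sterol ring, and in heart Msmo1 was higher while Nsdhl and Hsd17b7 were lower. In ExT the 3 log2 fold changes were 0.75, -1.08 and -1.36.

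Among the fatty acid genes 4 of 8 were higher in LV in each arm, 1 was lower and 3 were not called. Acly and Acaca, which supply cytosolic acetyl-CoA and malonyl-CoA, were higher by 0.58 and 0.47 in Sed and by 0.50 and 0.59 in ExT. The elongases Elovl6 and Elovl5 were higher by 1.26 and 0.47 in Sed, with Elovl6 between 0.865 and 1.93 CPM in LV_Sed and between 0.179 and 0.933 CPM in SM_Sed. Me1, the malic enzyme that makes NADPH, was lower in LV, by -0.68 in Sed and -0.39 in ExT. Acacb, the acetyl-CoA carboxylase form that restrains fatty acid oxidation, was not called, with medians of 273 CPM in LV_Sed and 288 CPM in SM_Sed. Its interval for Sed ran from -0.13 to 0.34. Fasn and Scd were not called either, and their spread between rats is described below.

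Promoters of 4 members are shown because they include genes higher in heart (Insig1, Cyp51) and lower in heart (Srebf2, Mvd). Sequences were taken from RefSeq on the rat build GRCr8, which held 25 promoters for 24 of the 31 matched members. Each runs 5′ to 3′ on the strand of its gene over the 250 bases before the start, which are chr4:8057770-8058019 (minus strand) for Insig1, chr4:30991443-30991692 (plus) for Cyp51, chr7:115543057-115543306 (plus) for Srebf2 and chr19:67414975-67415224 (minus) for Mvd. Capitals mark CCAAT (NF-Y), GGGCGG (Sp1), CACGTG (an E-box) and ATCACCCCA, each on either strand.
Insig1: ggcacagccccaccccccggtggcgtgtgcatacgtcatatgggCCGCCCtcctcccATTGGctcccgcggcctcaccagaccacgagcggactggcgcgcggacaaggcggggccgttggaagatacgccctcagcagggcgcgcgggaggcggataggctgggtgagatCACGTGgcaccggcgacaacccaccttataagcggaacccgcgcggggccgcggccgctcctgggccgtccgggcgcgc
Cyp51: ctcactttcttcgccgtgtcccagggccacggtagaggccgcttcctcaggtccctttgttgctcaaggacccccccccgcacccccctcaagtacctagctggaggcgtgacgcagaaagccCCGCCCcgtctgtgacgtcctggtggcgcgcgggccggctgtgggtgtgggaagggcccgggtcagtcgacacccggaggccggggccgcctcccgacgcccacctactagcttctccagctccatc
Srebf2: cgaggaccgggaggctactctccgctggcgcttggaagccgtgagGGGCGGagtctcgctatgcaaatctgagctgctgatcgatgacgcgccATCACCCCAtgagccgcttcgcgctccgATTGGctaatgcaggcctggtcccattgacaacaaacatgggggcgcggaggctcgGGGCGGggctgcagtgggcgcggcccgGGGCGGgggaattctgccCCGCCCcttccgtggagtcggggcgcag
Mvd: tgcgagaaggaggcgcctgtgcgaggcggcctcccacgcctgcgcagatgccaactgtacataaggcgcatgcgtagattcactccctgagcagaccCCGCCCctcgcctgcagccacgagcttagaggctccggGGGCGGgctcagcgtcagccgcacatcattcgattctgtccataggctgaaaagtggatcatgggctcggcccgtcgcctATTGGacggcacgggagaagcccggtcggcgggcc
The box CCAAT stood in 19 of these 25 promoters (76%) and in 34% of all 33469 promoters of that length, and GGGCGG in 19 of 25 (76%) and 30.5% of all. The sterol regulatory element in the form TCACNCCAC was in 0 of 25, beside 0.974% of all promoters. The 9 letters ATCACCCCA, searched after the sequences had been seen, were in Srebf2 alone among the members and in 0.212% of all promoters, and CACGTG was in 4 of 25 and in 5.59% of all. These are matches of letters in a fixed window and do not show binding.

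No member passed the threshold for a training difference in either tissue. In red gastrocnemius 0 of 31 members were called by edgeR, beside 0.206% of 13570 genes, and 0 by DESeq2. At an unadjusted p under 0.05 there were 8 (25.8%), beside 13.7% of all genes. In left ventricle 0 of 31 were called by edgeR, beside 0% of 14488 genes, and 0 by DESeq2, with 2 (6.45%) at an unadjusted p under 0.05 beside 5.9% of all genes. The median log2 fold change of the members was -0.02 in SM and -0.05 in LV, beside -0.01 and 0.00 for all genes tested. The 95% intervals bound most members closely. In SM 28 of 31 lay wholly within a 1.5-fold change in either direction and 30 within a 2-fold change, and in LV 26 and 29.

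**Figure D3:**
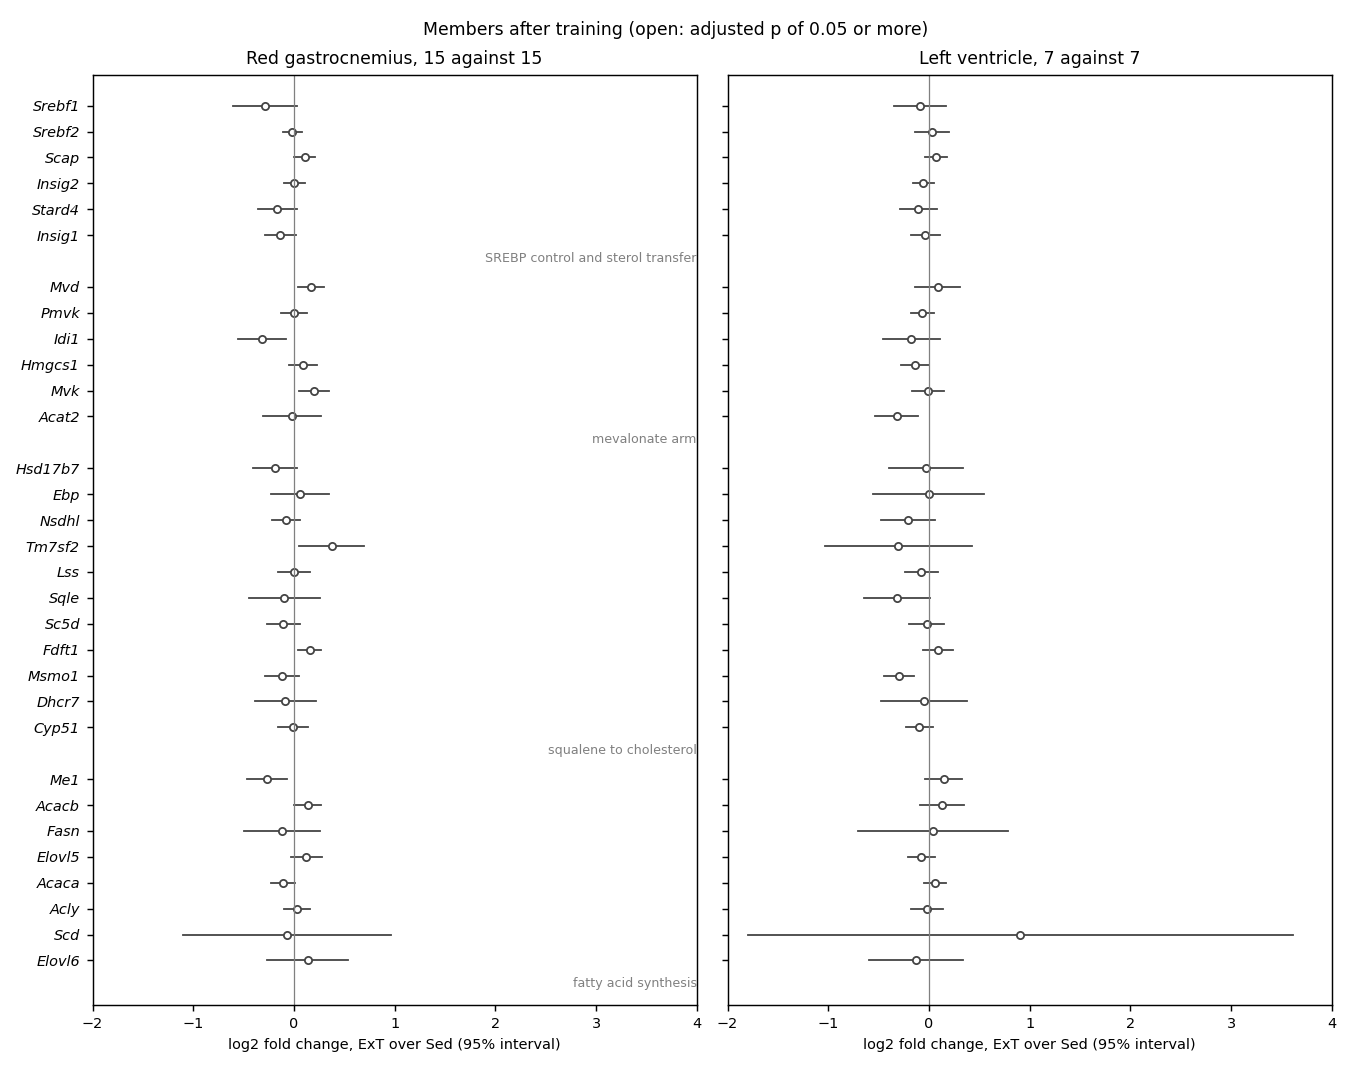
Log2 fold change of each member in ExT over Sed rats (x axis), with 95% intervals, in red gastrocnemius (15 against 15 rats) and left ventricle (7 against 7); all points are open because no adjusted p was under 0.05. Most intervals are short and cross 0, and the longest is that of Scd in heart, from -1.80 to 3.62.

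The 8 members with the smallest p in muscle went both ways. Me1 was between 58.3 and 109 CPM in SM_Sed (median 85.0) and between 52.4 and 88.0 CPM in SM_ExT (median 68.3), with a log2 fold change of -0.27 (95% interval -0.47 to -0.07, edgeR adjusted p = 0.222). Idi1 was between 2.34 and 4.35 CPM in SM_Sed (median 2.83) and between 1.58 and 4.19 CPM in SM_ExT (median 2.41), at -0.32 (-0.56 to -0.08, edgeR adjusted p = 0.222). The ranges of the arms overlapped in both genes. Mvd had medians of 6.58 CPM in SM_Sed and 7.38 CPM in SM_ExT and a log2 fold change of 0.17 (0.04 to 0.30, edgeR adjusted p = 0.222). Within rats 2 to 16 alone, 7 an arm, Mvd passed, at 0.30 (edgeR adjusted p = 0.0394), the sole member to do so, and within rats 17 to 32 it was at 0.07. The share of all genes that passed within rats 2 to 16 is not given here. Mvk, Fdft1, Tm7sf2, Scap and Acacb had log2 fold changes of 0.20, 0.16, 0.37, 0.11 and 0.13, with edgeR adjusted p from 0.223 to 0.363. Between the arms of SM the summed Schwann cell and myelin markers had medians of 50.5 CPM in Sed and 103 CPM in ExT (ranges 20.5 to 148 and 39.9 to 183), and 0 of 9 of them tested were called. Other marker lists leaned to 1 side as well. Log2 fold changes were above 0 in 7 of 7 slow fibre and 7 of 7 endothelial markers. They were above 0 in 0 of 5 fast fibre, 0 of 7 macrophage and leukocyte and 0 of 6 fibroblast markers, and in 2 of 5 adipocyte markers. None of these markers was called. The part of such differences in the members' values was not tested.

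None of the regulators was called with training. In muscle Srebf1 was between 37.4 and 137 CPM in SM_Sed (median 76.5) and between 47.1 and 120 CPM in SM_ExT (median 66.1), a log2 fold change of -0.29 (-0.61 to 0.03, edgeR adjusted p = 0.42). Srebf2 varied little, between 38.4 and 50.1 CPM in Sed and between 35.7 and 49.1 CPM in ExT, at -0.02 (-0.11 to 0.08). Insig1 was at -0.14 (-0.29 to 0.02) and Insig2 at 0.00 (-0.10 to 0.11). In heart the intervals were -0.35 to 0.17 for Srebf1, -0.14 to 0.20 for Srebf2, -0.18 to 0.11 for Insig1, -0.16 to 0.05 for Insig2 and -0.04 to 0.17 for Scap.

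In heart the smallest p belonged to Msmo1 and Acat2, genes of sterol synthesis. Msmo1 was between 8.38 and 10.7 CPM in LV_Sed (median 10.3) and between 7.17 and 9.13 CPM in LV_ExT (median 8.08), with a log2 fold change of -0.30 (-0.45 to -0.15, edgeR p = 5.63e-04, adjusted p = 0.804). Acat2 was between 2.14 and 3.17 CPM in LV_Sed and between 1.87 and 2.48 CPM in LV_ExT, at -0.32 (-0.53 to -0.10, edgeR adjusted p = 0.804). The ranges of the arms overlapped in both genes. Hmgcs1, Sqle, Nsdhl and Cyp51 were at -0.14, -0.31, -0.21 and -0.09 and Me1 at 0.14, none of them called. The direct tests of whether training differed between tissues called 0 of 31 members for LV minus SM (2 at an unadjusted p under 0.05, or 6.45% beside 4.57% of 15049 genes). For MT minus SM they called 0 of 31 (8, or 25.8%, beside 8.5% of 27684 genes), while 0% and 0.0181% of all genes passed these tests.

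Scd and Fasn varied widely between rats of the same arm. Scd (ENSRNOG00000013552), the desaturase that makes monounsaturated fatty acids and shares near-identical copies in the genome, ranged from 1.10 to 38.5 CPM in SM_Sed (median 3.26) and from 1.05 to 17.7 CPM in SM_ExT (median 3.90). Its coefficient of variation was 134% in SM_Sed and 81.1% in SM_ExT, while the median over all genes tested was 15.7% and 15.2%. Fasn (ENSRNOG00000045636), fatty acid synthase, ranged from 13 to 60.1 CPM in SM_Sed, a coefficient of variation of 46.7%. Across all 31 members the median coefficient of variation was 16.3% in SM_Sed and 14.2% in SM_ExT, close to that of all genes. The log2 fold change of Scd with training in muscle was -0.07 (-1.11 to 0.97). Without rat 8 of SM_Sed, whose Scd and Fasn were the highest of the 30 muscles, it was 0.46, and neither value was called.

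**Figure D4:**
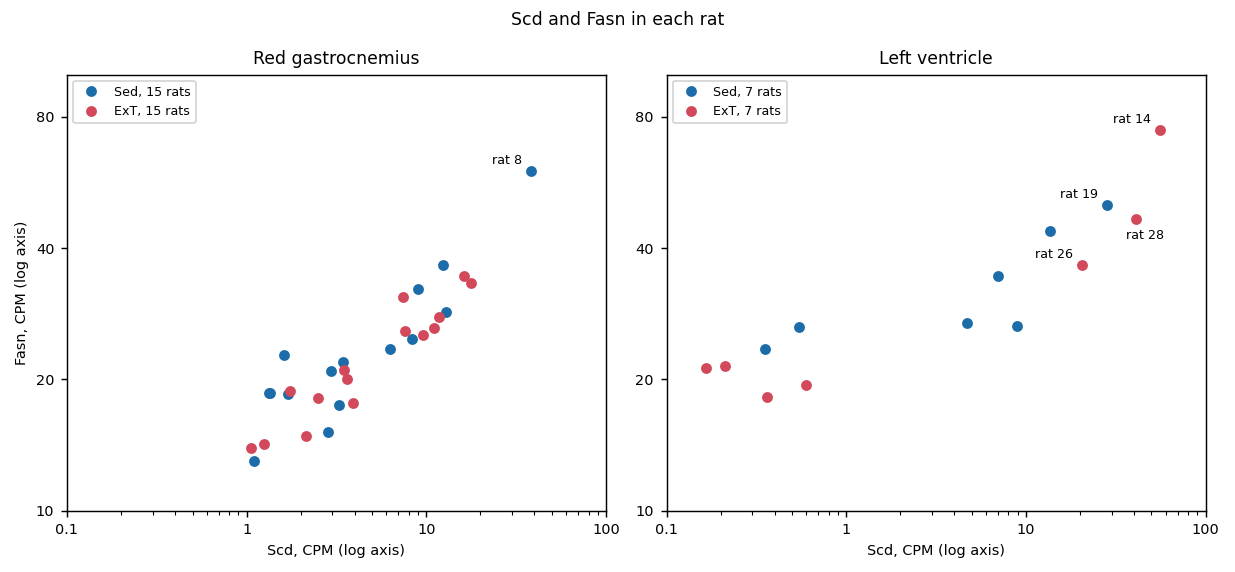
Scd (x axis) against Fasn (y axis) in TMM-scaled CPM on log axes, 1 point a rat, in red gastrocnemius (15 Sed in blue, 15 ExT in red) and left ventricle (7 and 7). Rat 8 stands highest in muscle at 38.5 CPM of Scd and 60.1 CPM of Fasn, and in heart rats 14, 26 and 28 of ExT stand apart from the other 4.

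The levels of Scd and Fasn went together across rats. Over 15 rats of SM_Sed, on log2(CPM + 0.5), Pearson's r was 0.90 and Spearman's rho 0.84, and over 15 rats of SM_ExT they were 0.95 and 0.90 (permutation p adjusted over 118 relations 0.00059, 0.0153, 0.00059 and 0.00236; this family, of Scd and of Hmgcs1 with the other members, was added after the data had been seen). Of those 118 relations 4 passed by r, these and Scd with Acaca in SM_Sed (r 0.76) and Hmgcs1 with Srebf1 in SM_ExT (r -0.78), and 2 passed by rho, both of Scd with Fasn. Within rats 2 to 16 r was 0.94 in Sed and 0.93 in ExT, and within rats 17 to 32 it was 0.88 and 0.98. Leaving out the 2 rats with Scd farthest from the median gave 0.82 and 0.92. Scd also went with the summed level of 10 adipocyte markers in SM_Sed (r 0.80, permutation p = 0.00031, 0.0384 adjusted over 124 relations). There Spearman's rho was 0.68 (adjusted permutation p = 0.13), and without rats 8 and 20 r was 0.59. In SM_ExT r was 0.53 (adjusted permutation p = 0.356). Within rats 2 to 16 and 17 to 32 r was 0.88 and 0.61 in Sed and 0.61 and 0.61 in ExT. Of the 124 relations of members with adipocyte or Schwann cell markers, 2 passed by r, that of Scd in Sed and that of Ebp in ExT (r 0.79, adjusted permutation p = 0.0403), and 0 passed by rho. Without rats 26 and 28 r for Ebp was 0.70, and within rats 2 to 16 and 17 to 32 it was 0.74 and 0.80. How far RNA from fat cells enters the values of Scd and Fasn was not tested.

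Heart showed a wider split in Scd. In LV_ExT rats 26, 28 and 14 had 20.6, 41.2 and 55.8 CPM, and the other 4 rats had between 0.166 and 0.600 CPM. The same 3 hearts held 36.5, 46.5 and 74.7 CPM of Fasn against 18.2 to 21.5 CPM in the other 4. Adipoq, the fat cell gene for adiponectin, was at 1.09, 2.64 and 3.53 CPM in these 3 hearts and at 0.0143 CPM or less in the other 4. The summed level of 10 adipocyte markers, Adipoq among them, ran from 31.7 CPM in rat 18 to 41.2 CPM in rat 14 over the 7 hearts. Rat 18 held the least Scd of the 7 and rat 14 the most. The part of fat cells in the split was not tested. Muscle of the same 3 rats did not stand out, with Scd at 2.51, 3.90 and 2.14 CPM in rats 26, 28 and 14. In LV_Sed Scd ran from 0.352 to 28.2 CPM (median 7.01). Rat 20 of LV_Sed held 13.6 CPM of Scd and 43.8 CPM of Fasn with Adipoq at 0.0375 CPM, from 3 reads. The sum of the 10 adipocyte markers was nevertheless highest of LV_Sed in that heart, at 49.4 CPM beside a group median of 34.8 CPM. It was lowest in rat 29, at 31.8 CPM, where Scd was lowest too. Rat 19 of LV_Sed held 28.2 CPM of Scd and 50.2 CPM of Fasn with Adipoq at 3.94 CPM. Because LV_ExT falls into separate clusters no correlation was computed in heart, and the interval of the training effect on Scd there, -1.80 to 3.62, leaves its direction undetermined.

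In mitochondria the members carried few reads, for example 14 to 46 reads of Scd per MT_Sed library and 33 to 853 per SM_Sed library. A floor of 3 reads was worth between 0.3 and 5.66 CPM of the library total in MT, so low levels there are imprecise. By edgeR 25 of 31 members differed between MT and SM in Sed, 11 higher and 14 lower, or 80.6% beside 94.8% of 22842 genes (61.7% higher and 33.1% lower), and 24 in ExT, 11 higher and 13 lower, or 77.4% beside 94.3% of 21312 genes (59.3% higher and 35% lower). The split depended on the scaling. In Sed it was 17 higher and 13 lower with DESeq2 size factors and 21 and 3 with library totals alone, and in ExT 17 and 13 and then 19 and 3. Single genes are therefore given relative to the median log2 fold change of all genes tested, which was 1.81 in Sed and 1.31 in ExT. The genes tested included 850 olfactory and vomeronasal receptor genes in Sed and 698 in ExT, with median log2 fold changes of 7.95 and 8.28. Such genes raise the reference, so a place below it does not by itself show loss of a transcript from MT. Below the median of all genes tested lay 27 of 31 members in Sed and 24 in ExT. A change of scaling moves all genes nearly alike, so these counts could hardly differ between the 3 scalings and do not test them.

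**Figure D5:**
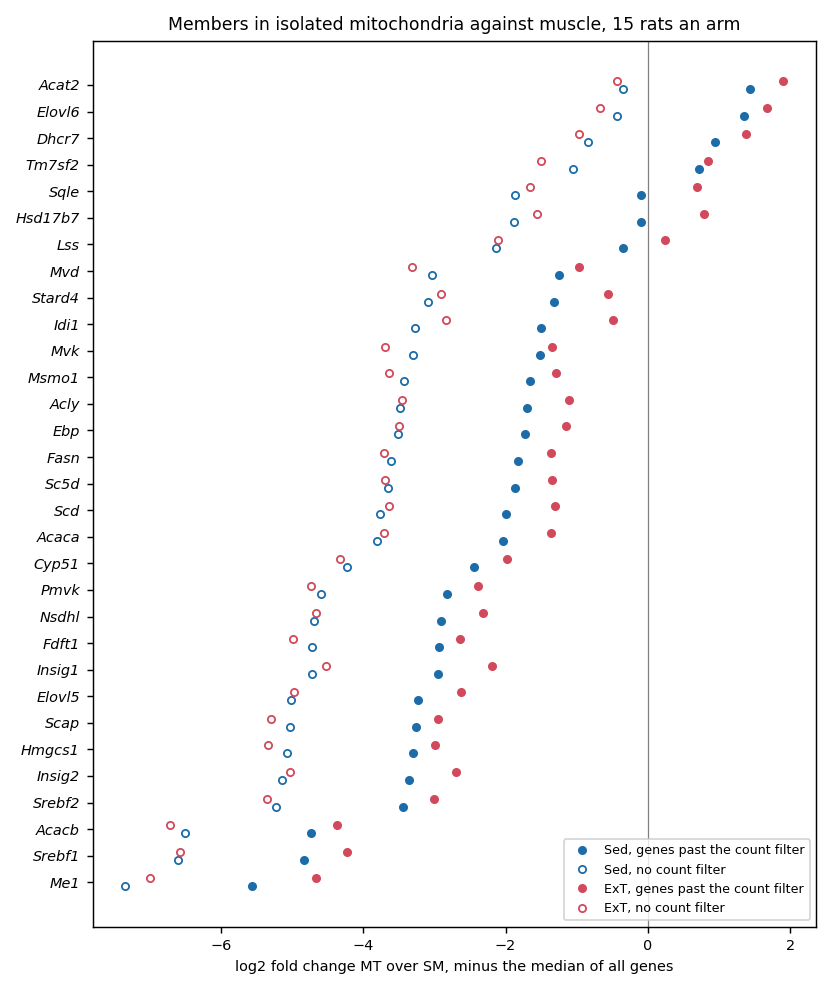
Log2 fold change of each member in MT over SM minus the median of all genes (x axis), for 15 Sed rats (blue) and 15 ExT rats (red); filled points use genes past the count filter, open points use all genes with a read. Me1, Srebf1 and Acacb lie lowest under both, and the members above 0 with the filter lie below 0 without it.

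Lowest in MT relative to the median stood the malic enzyme gene Me1 and the genes Srebf1 and Acacb. Me1 was between 4.86 and 12.4 CPM in MT_Sed (median 9.97) and between 90.2 and 178 CPM in SM_Sed (median 142), at -5.56 relative to the median. Srebf1 was between 12.3 and 23.4 CPM in MT_Sed and between 60.9 and 222 CPM in SM_Sed, at -4.83, and Acacb had medians of 53.6 and 392 CPM, at -4.73. In ExT the 3 stood at -4.66, -4.24 and -4.37. None of the 3 overlapped between MT and SM, which was not counted over all genes. All 3 were called lower under each scaling in both arms. The other regulators were below the median too, with Srebf2 at -3.45, Insig2 at -3.36, Scap at -3.26 and Insig1 at -2.95 in Sed.

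At the other end stood genes of several steps of both pathways. Acat2, the thiolase of the mevalonate arm, which has a near-identical copy in the rat genome, was between 21.8 and 33.0 CPM in MT_Sed (median 28.2) and between 1.69 and 4.94 CPM in SM_Sed (median 2.72), at 1.43 above the median. Elovl6 was between 4.29 and 9.90 CPM in MT_Sed and between 0.259 and 1.51 CPM in SM_Sed, at 1.35, from 10 to 36 reads per MT_Sed library, and Dhcr7 and Tm7sf2 stood at 0.94 and 0.72. Sqle and Hsd17b7 stood at -0.10 and -0.10. Leaving out the genes of the mitochondrial genome moved Acat2 to 0.94, Elovl6 to 0.86, Dhcr7 to 0.45, Tm7sf2 to 0.23 and Sqle to -0.59 in Sed. With no filter on low counts 30028 genes were tested in Sed, their median was 3.44, and all 31 members lay below it, Acat2 at -0.35, Elovl6 at -0.43 and Sqle at -1.88. The 1260 olfactory and vomeronasal receptor genes took a median of 1.64% of the reads on nuclear genes in MT_Sed and 0.00112% in SM_Sed, and 6 heart muscle markers had medians of 272 and 11.5 CPM. The 31 members together took 0.196% in MT_Sed and 0.106% in SM_Sed. The part of such background in the members' MT values was not tested.

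Training called 0 of 30 members in MT by edgeR, beside 0% of 19281 genes, and 0 by DESeq2, with 2 (6.67%) at an unadjusted p under 0.05 beside 4.73% of all genes. These were Fasn at -0.18 (95% interval -0.35 to -0.01) and Srebf1 at -0.22 (-0.44 to -0.01). Scd, so variable in whole muscle, ranged from 10.5 to 22.1 CPM over the 15 MT_Sed libraries and from 11.4 to 20.2 CPM over MT_ExT.

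Other genes of sterol and lipid metabolism were read from a list of 51, of which 48 were matched. Training called 0 of 43 tested in SM and 0 of 44 in LV, beside 0.206% and 0% of all genes. Between LV and SM 21 of 44 were higher and 15 lower in Sed, beside 40% and 38.6% of all genes. In ExT 21 were higher and 14 lower, beside 39.7% and 39.5% of all genes. Thrsp, a lipogenic gene, had log2 fold changes of 0.92 in Sed and 0.80 in ExT between LV and SM, neither called and both turned with the rat as a block (-0.079 and -0.33), and ranged from 0.0132 to 5.69 CPM in LV_Sed. With training Thrsp had log2 fold changes of -0.67 in SM and -0.15 in LV, neither called.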

How the data were processed

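The deposited values were counts of reads per gene, 1 table for each of SM, MT and LV, with 74 columns matched to their samples by title. Per the submitters' processing notes, FastQC 0.74, cutadapt 4.6, STAR 2.7.11a and HTSeq were used with the build mRatBN7.2; the annotation and the strand setting are not given in the sources used here. Per the labels' protocols, SM (50 ng of RNA) and MT (10 ng) libraries were made with the Zymo-Seq RiboFree kit and LV (100 ng) with the Illumina TruSeq Stranded Ribo-Zero kit.

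Counts were fitted over all genes with edgeR 4.0.16 (R 4.3.3), using TMM factors, filterByExpr and the robust quasi-likelihood F test. P-values were adjusted by Benjamini-Hochberg over all genes tested and called under 0.05, and intervals are 95%. LV was compared with SM of the same 7 rats an arm. Same-numbered libraries come from the same rat, so the numbers pair the samples; same-rat deviations correlated with a median of 0.00227 for MT and SM and 0.0396 for LV and SM. Counts differed by more than sampling noise in each pair of libraries of a group. A count of 3 was taken as the floor, between 0.0396 and 0.0549 CPM in LV and between 0.0761 and 0.154 CPM in SM and between 0.3 and 5.66 CPM in MT, which covers counting error only. Correlations used log2(CPM + 0.5), 100000 permutations and 2-sided p-values; coefficients of variation are over rats of a group. Promoters came from RefSeq.

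Members and lists were chosen with earlier results of these data known. Named genes were the 8 members with the smallest p in a training comparison where fewer than 8 were called, the 8 called members with the largest change between MT or LV and SM, the regulators and Thrsp; some other genes of that rule are not reported here. Further members were named for their role after their values were seen. Alternatives were DESeq2 1.42.0 (Wald test and size factors), library totals alone, no count filter, the rat as a block, the range of rat numbers (2 to 16 and 17 to 32) as a covariate or within each range, mitochondrial-genome genes left out, and, for training in SM and in LV, each library left out in turn; not all of these were run for each comparison. The correlations of Scd and Hmgcs1 with other members, 2 motifs and the fits without the heart of Sed rat 20 or rat 29 were added after the data had been seen.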

Additional observations from a re-analysis of the deposited data

Results flagged for a closer look

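In 62 groups of 7 hearts, 1 for each member and arm, 8 held a rat whose value stood apart from the others by Dixon's test at 95%. Chance flags about 1 in 20 groups. The groups of an arm share the same 7 hearts and are not independent, so 8 of 62 cannot be judged against that rate. In LV_Sed, rat 20 stood high in Dhcr7 at 4.41 CPM (next 2.40), Nsdhl at 5.96 CPM (next 3.88) and Acly at 33.5 CPM (next 28.3), and rat 29 stood low in Hmgcs1 at 25.7 CPM (next 31.5). Rat 20 held the highest value of its group in 15 of 31 members, and rat 29 the lowest in 17 of 31. In LV_ExT, rat 18 stood high in Idi1 at 5.16 CPM (next 3.87), rat 26 in Hsd17b7 at 0.971 CPM (next 0.697), rat 17 in Acacb at 451 CPM (next 349) and rat 14 in Acly at 33.6 CPM (next 27.6). Rat 14 held the highest value of its group in 9 of 31 members and was 1 of the 3 hearts with high Scd.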

How the results depend on the processing

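Of 384 summary values under the alternatives, 365 stayed within the limits set for them and 19 moved, none between LV and SM; 59 of 1301 single-gene values changed sign, and the causes of the changes below were not tested unless stated. SM training within rats 2 to 16 called 1 member, 1 higher (Mvd), and the share of all genes called there is not given. Values of genes that were not called changed sign as follows. In SM, Scd was 0.051 with the range of rat numbers as a covariate and 0.75 in rats 17 to 32, where Fasn was 0.015, Insig2 -0.038 and Srebf2 0.033. In LV, Fasn was -0.086 with the covariate and -0.33 in rats 17 to 32, where Insig1 was 0.027 and Srebf2 -0.017. In MT of rats 17 to 32, Scd was -0.081 and Srebf2 0.0074. With the rat as a block, Thrsp between LV and SM was -0.079 in Sed and -0.33 in ExT. Lss between LV and SM in Sed was -0.26 with no filter (edgeR adjusted p = 0.0541) and no longer called.

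Leaving out 1 library, run for training in SM and LV, gave ranges across 0 in SM for Scd (-0.25 to 0.46), Fasn (-0.17 to 0.031), Insig2 (-0.022 to 0.016) and Srebf2 (-0.030 to 0.0032). In LV they were Fasn (-0.29 to 0.17), Insig1 (-0.073 to 0.0069), Srebf2 (-0.015 to 0.067) and Thrsp (-0.89 to 0.41).

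Between MT and SM, the members called higher were 17 in each arm with DESeq2 size factors and with DESeq2's Wald test. With library totals alone 21 were higher and 3 lower in Sed and 19 and 3 in ExT. The members' median was 0.34 and 0.33 with size factors, 0.34 and 0.34 by the Wald test, -0.21 and -0.21 with no filter, and 1.54 and 1.54 with totals (Sed and ExT), and 0.052 in Sed with the block. With no filter more low genes set the median, and the values relative to it became -0.35 and -0.44 for Acat2, -0.84 and -0.97 for Dhcr7, -0.43 and -0.67 for Elovl6 and -1.06 and -1.50 for Tm7sf2 (Sed and ExT), and -1.56 for Hsd17b7 in ExT. Without mitochondrial-genome genes Hsd17b7 was -0.12 and Tm7sf2 -0.067 in ExT. The rat block called 25 and 24 members between MT and SM and 25 and 25 between LV and SM, and 0 in both training difference tests; it changed no call of a member between LV and SM other than Acat2 and Sqle in Sed. MT libraries held few reads per member, which limits their precision.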
